A study of Mus musculus with 71 samples.

Results

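In mouse embryonic stem cells (ESC), 1432 of 4926 regions marked by trimethylation of histone H3 at lysine 27 (H3K27me3), or 29.1%, overlapped no interval bound by RING1B. They were chosen as the rows of the ESC H3K27me3 CUT&RUN peak table that share not even 1 base with an interval of the ESC RING1B ChIP-seq table or of the ESC RING1B CUT&RUN table. The remaining 3494 regions (70.9%) touched at least 1 RING1B interval and are the comparison set. The RING1B intervals come from tables with CaPS and WT libraries and, for CUT&RUN, CBX7-mCaPS libraries as well. The rule used positions only and no H3K27me3 value of either genotype. A wider region is more likely to meet a RING1B interval, so width is tied to the rule. The signal of a region grows with its width, so it is tied to the rule in part. Every region in the table has its centre within 10 kb of an annotated transcription start site (TSS), and the nearest TSS gives each region its gene. The 1432 members were annotated to 1318 genes, of which 102 had more than 1 member.

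The cells were J1 mouse ESC carrying CBX7-CaPS (called CaPS here) or wild-type CBX7 (WT). CBX7 is the chromobox subunit of Polycomb repressive complex 1 (PRC1) that prevails in ESC. ESC were grown with leukaemia inhibitory factor on gelatin together with mouse embryonic fibroblast feeder cells. Neural progenitor cells (NPC) were made from feeder-depleted ESC in suspension with retinoic acid and collected at day 6 and day 8, and embryoid bodies (EB) were collected at day 10. H3K27me3 CUT&RUN in ESC had 1 library of each genotype, with 15.35 M tags in CaPS and 15.34 M in WT. H3K27me3 ChIP-seq in ESC had 2 libraries of each genotype. The RING1B ChIP-seq time course also had 2 of each genotype in ESC, in day-6 NPC and in day-8 NPC. A separate day-8 NPC RING1B ChIP-seq table had 2 of each genotype as well, of which 1 is shared with the time course. The labels list further ESC RING1B ChIP-seq libraries of both genotypes, whose values were not compared here. Day-10 EB RING1B CUT&RUN had 1 library of each genotype, and day-8 H3K27me3 ChIP-seq has 1 value per genotype, for which the labels list 1 library (experiment 5) and whose column header calls it pooled. The labels do not name separate cultures or clones behind the libraries of a genotype, so each p-value measures the spread between these libraries, which may be technical. All values are tags per 10 M tags of a library, where 10 M is 10000000, a tag being a sequenced fragment counted in the region.

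H3K27me3 is laid down by Polycomb repressive complex 2, and RING1B is the ubiquitin ligase core of PRC1. CBX proteins in PRC1 bind H3K27me3 through a chromodomain, so the mark and RING1B usually lie together at silent developmental genes. In ESC both are typical of CpG islands, stretches dense in CG dinucleotides that many promoters hold. A region with the mark and no RING1B interval is one that no RING1B interval of the authors' ESC tables reaches, which is not the same as no RING1B.

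Promoters were few among the members. Of 32841 RefSeq promoter windows, each with 250 bases before and 50 bases after a TSS, 136 lay wholly inside 118 members, and 102 members held the window of their own gene. Shown first are the promoters inside the 3 members with the highest WT signal that held their own gene's window, shown because they carry the strongest mark, and then those of the 3 such members with the lowest CaPS to WT ratio. Sequences are from RefSeq (GRCm38.p6, the assembly also called mm10), written 5′ to 3′ on the gene's strand, with CG dinucleotides in capitals. The windows are chr7:70337773-70338072 (minus strand, Gm29683), chr1:172590519-172590818 (minus strand, Slamf8), chrX:135060287-135060586 (minus strand, 3632454L22Rik), chr10:97035518-97035817 (plus strand, 4930556N09Rik), chr8:94435054-94435353 (minus strand, 9330175E14Rik) and chr14:74640624-74640923 (plus strand, Htr2a).
Gm29683: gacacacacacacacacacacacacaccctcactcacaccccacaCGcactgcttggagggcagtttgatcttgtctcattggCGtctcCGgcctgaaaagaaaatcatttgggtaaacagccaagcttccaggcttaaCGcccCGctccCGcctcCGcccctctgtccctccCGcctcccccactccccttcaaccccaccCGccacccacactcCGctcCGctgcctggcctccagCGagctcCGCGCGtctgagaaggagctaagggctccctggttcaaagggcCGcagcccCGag
Slamf8: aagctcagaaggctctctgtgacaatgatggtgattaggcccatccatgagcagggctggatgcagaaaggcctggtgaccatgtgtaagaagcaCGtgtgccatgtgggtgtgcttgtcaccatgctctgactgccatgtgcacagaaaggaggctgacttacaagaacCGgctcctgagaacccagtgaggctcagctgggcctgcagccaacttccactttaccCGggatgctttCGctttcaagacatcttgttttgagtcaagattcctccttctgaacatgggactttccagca
3632454L22Rik: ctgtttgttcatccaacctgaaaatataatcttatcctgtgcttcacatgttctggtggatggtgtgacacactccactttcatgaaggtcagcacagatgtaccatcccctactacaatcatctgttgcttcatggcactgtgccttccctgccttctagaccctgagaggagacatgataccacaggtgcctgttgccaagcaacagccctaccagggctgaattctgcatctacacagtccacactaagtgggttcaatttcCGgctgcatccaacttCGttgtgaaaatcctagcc
4930556N09Rik: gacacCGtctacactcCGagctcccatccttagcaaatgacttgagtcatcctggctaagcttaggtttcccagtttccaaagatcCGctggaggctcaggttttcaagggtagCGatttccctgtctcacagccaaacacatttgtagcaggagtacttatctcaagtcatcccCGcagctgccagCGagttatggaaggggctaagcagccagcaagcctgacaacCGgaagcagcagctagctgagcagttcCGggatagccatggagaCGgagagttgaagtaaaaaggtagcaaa
9330175E14Rik: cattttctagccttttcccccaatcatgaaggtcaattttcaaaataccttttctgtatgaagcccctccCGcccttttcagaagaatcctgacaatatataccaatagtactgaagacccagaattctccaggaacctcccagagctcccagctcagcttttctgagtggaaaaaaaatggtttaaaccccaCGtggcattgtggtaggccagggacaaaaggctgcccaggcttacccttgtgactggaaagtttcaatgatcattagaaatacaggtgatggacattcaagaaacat
Htr2a: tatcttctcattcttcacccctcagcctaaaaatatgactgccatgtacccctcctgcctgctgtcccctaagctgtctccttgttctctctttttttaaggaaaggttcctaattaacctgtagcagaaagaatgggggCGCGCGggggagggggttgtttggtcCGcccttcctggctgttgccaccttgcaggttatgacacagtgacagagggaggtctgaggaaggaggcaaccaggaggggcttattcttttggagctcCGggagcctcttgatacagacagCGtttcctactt

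The Gm29683 window holds 17 CG dinucleotides, against 4 in that of Slamf8, a receptor of the SLAM family on myeloid cells, and 2 in that of 3632454L22Rik. The 3 windows from members with low ratios hold 9, 2 and 6. H3K27me3 at 4930556N09Rik was 28.7 in CaPS and 67.5 in WT, a ratio of 0.425 (95% interval 0.290 to 0.607). It was 10.1 in CaPS and 23.1 in WT at 9330175E14Rik, and 9.77 in CaPS and 20.2 in WT at Htr2a, a serotonin receptor gene. At these 2 the CaPS value lay under 20, where the floor of the table, described below, allows only a higher WT value.

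Over all 136 windows inside members, the median was 8 CG dinucleotides (interquartile range 3 to 16), against 19 (10 to 29) in the 2700 windows inside RING1B-overlapping regions and 7 (3 to 20) over all windows. At most 5 CG dinucleotides were found in 60 member windows (44.1%), in 310 windows of RING1B-overlapping regions (11.5%) and in 43.6% of all windows. At least 20 were found in 23 member windows (16.9%), 1304 windows of RING1B-overlapping regions (48.3%) and 26.5% of all. The shares of member windows with few CG dinucleotides lay near that of all promoters, and those with many lay below both other sets. 4 motifs were searched on both strands, each window counting once for a motif. TATAAA, the TATA box, was in 14.7% of member windows, 7.96% of windows in RING1B-overlapping regions and 13.6% of all. The E box CACGTG was in 7.35% of member windows and 7.15% of all, the E2F-type motif TTCCCGC in 3.68% of member windows and 4.60% of all, and CCAAT in 31.6% of member windows and 37.4% of all. A match is only a match of letters.

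**Figure D1:**
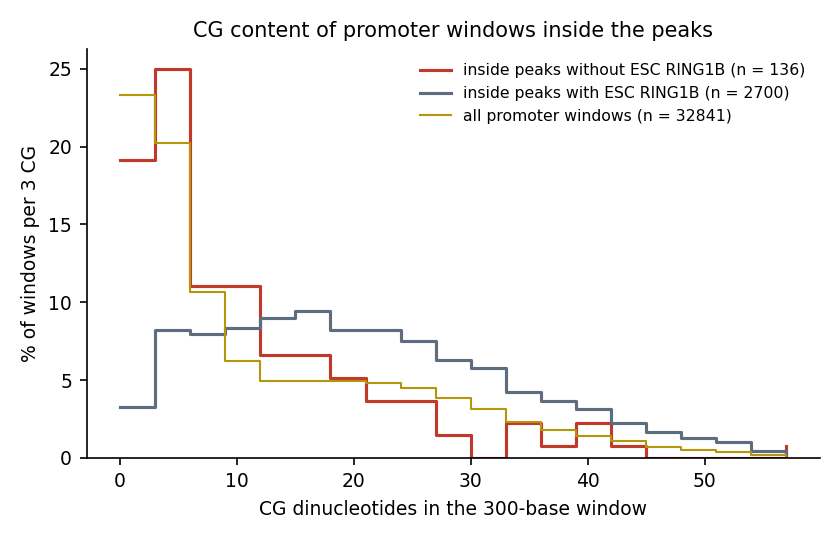
Number of CG dinucleotides in the promoter window (x axis) against the percentage of windows in bins of 3 CG (y axis), for windows inside members, inside RING1B-overlapping regions and for all RefSeq promoter windows. The member line peaks at low CG content with the line of all windows, while that of RING1B-overlapping regions is broad, with a median of 19.

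Members were narrow and weak, in part because the rule favours narrow regions. Their median width was 2187 bases (interquartile range 1634 to 3108, full range 768 to 61511), against 5352 bases (3020 to 8831) for RING1B-overlapping regions, and 93.6% of members were narrower than 5 kb, against 46.4%. H3K27me3 had a median of 31.9 in CaPS (24.1 to 46.9) over the members, against 106 (52.4 to 206) over RING1B-overlapping regions. In WT the medians were 27.1 (20.2 to 40.4) and 93.8 (46.9 to 174). Per kb of region the gap was smaller, with medians of 15.3 in members and 20.4 in RING1B-overlapping regions in CaPS, and of 12.6 and 18.1 in WT. A member rests on few tags, with a median of 89.5 over both libraries together and a lowest value of 42.

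Members also lay away from start sites. The centre was within 1 kb of the TSS in 124 members (8.66%), against 1553 RING1B-overlapping regions (44.4%), and the median distance was 4309 bases, against 1185. By the authors' annotation 757 members (52.9%) were intergenic, 535 (37.4%) intronic, 55 (3.84%) exonic or in untranslated regions and 55 (3.84%) promoters, against 17.5%, 42.8%, 13.9% and 23.6% of RING1B-overlapping regions. The detailed annotation gives each centre 1 label, so a CpG island or repeat at a centre labelled promoter or exon is not counted. That label was a CpG island in 2 members (0.140%), against 190 RING1B-overlapping regions (5.44%). It was a long terminal repeat element in 143 members (9.99%), a SINE in 142 (9.92%) and a LINE in 98 (6.84%), against 1.43%, 3.66% and 1.20%. More RING1B-overlapping centres were labelled promoter or exon, so these label shares are not shares of sequence content. These shares describe regions of the same libraries, and the differences carry no test because regions are not replicates.

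**Figure D2:**
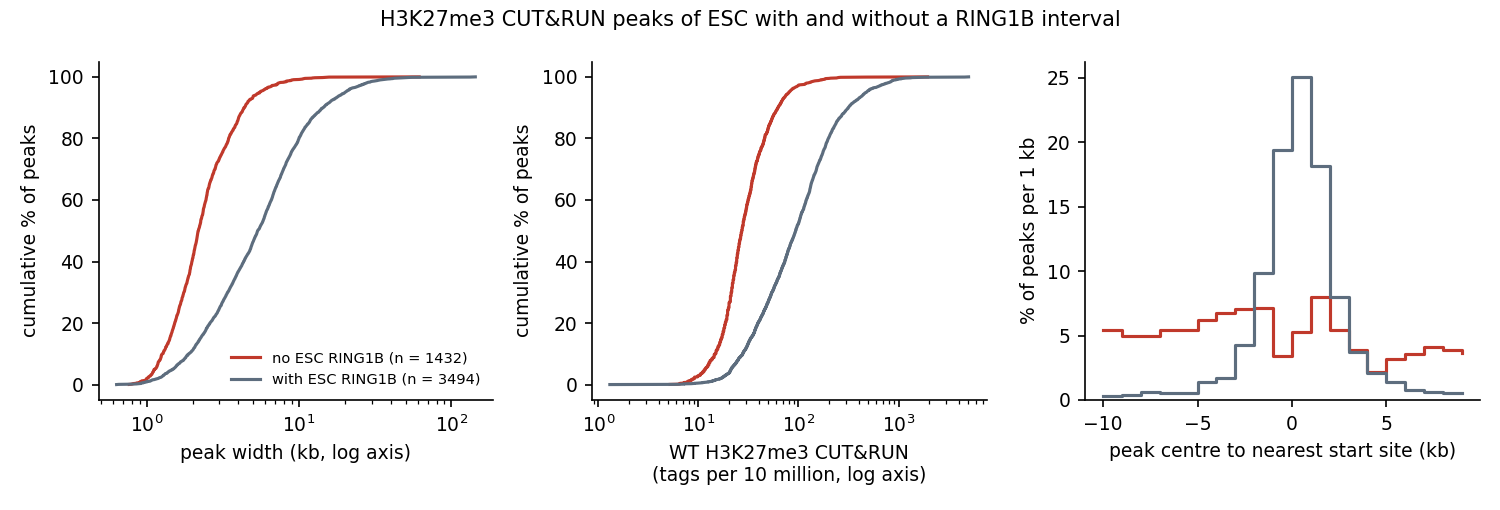
The first panels give the cumulative percentage of regions (y axis) by width in kb and by WT H3K27me3 CUT&RUN signal in tags per 10 M (x axes, log scale), and the last gives the percentage of regions per 1 kb (y axis) by distance of the centre from the TSS in kb, for members (red) and RING1B-overlapping regions (grey). The member curves lie to the left (median width 2187 against 5352 bases), and 8.66% of members, against 44.4%, have their centre within 1 kb of the TSS.

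Many members neighboured RING1B without touching it. The nearest RING1B interval was at a median of 5965 bases, within 1 kb in 202 members (14.1%), within 10 kb in 859 (60.0%) and within 100 kb in 86.2%. The ESC RING1B intervals are listed only within 10 kb of a TSS. RING1B farther from a TSS is missing from these distances, which can therefore be too long. A RING1B interval was annotated to the same gene in 823 members (57.5%). The closest was at Amigo1, an adhesion molecule gene, where the gap was 2 bases and the signal 25.1 in CaPS and 18.6 in WT. Just outside the rule were regions at Prex1 and Tcerg1l that shared 6 bases with a RING1B interval, with 17.6 in CaPS and 23.1 in WT at Prex1, and 30.9 in CaPS and 14.7 in WT at Tcerg1l. By distance, the 202 members within 1 kb had a median log2 ratio of CaPS to WT of 0.46, against 0.27 in each of the 3 bins farther away (427 members at 1 to 5 kb, 475 at 5 to 50 kb and 328 beyond 50 kb).

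The second H3K27me3 assay overlapped few of them. An ESC H3K27me3 ChIP-seq peak overlapped 264 members (18.4%), against 2699 RING1B-overlapping regions (77.2%), and a day-8 NPC H3K27me3 peak overlapped 207 (14.5%), against 2702 (77.3%). In the lowest quartile of all regions by WT signal, up to 29.98 tags per 10 M, ChIP-seq overlapped 11.5% of 809 members and 33.5% of 409 RING1B-overlapping regions. In the second quartile it overlapped 20.2% of 471 members and 57.3% of 772, in the third 45.3% of 128 and 84.3% of 1105, and in the highest 75% of 24 and 98.3% of 1208. The overlap was lower for members within every quartile, where widths were alike, with medians of 1732 and 1623 bases in the lowest and 9612 and 10688 bases in the highest. Members made up 66.4% of the lowest quartile and 1.95% of the highest.

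**Figure D3:**
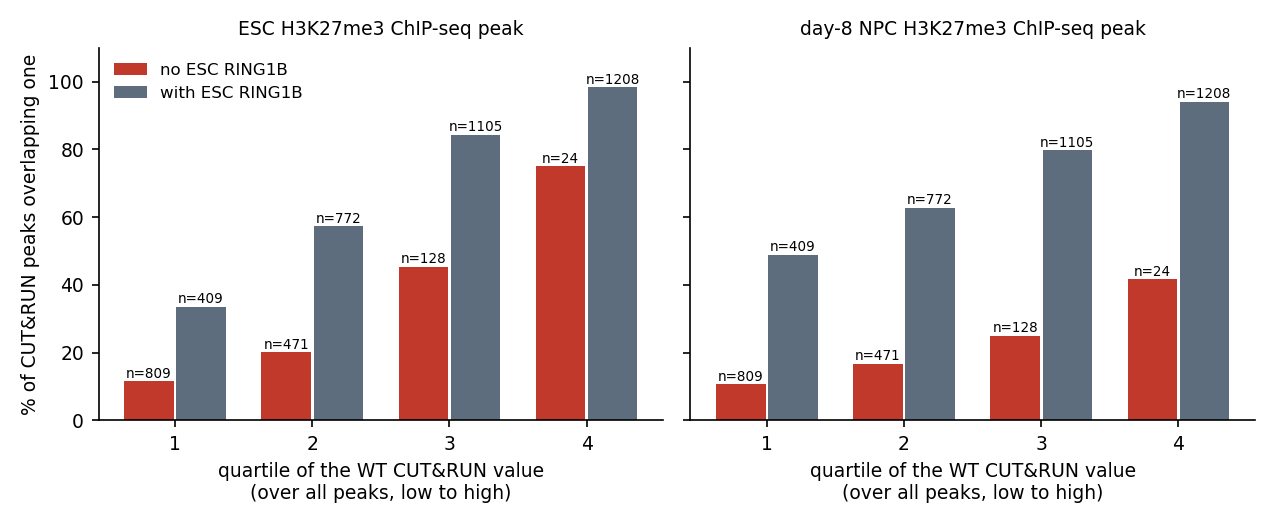
Bars give the percentage of CUT&RUN regions overlapped by an ESC (left panel) or day-8 NPC (right panel) H3K27me3 ChIP-seq peak (y axis), by quartile of WT CUT&RUN signal over all regions from low to high (x axis), for members (red) and RING1B-overlapping regions (grey), with the number of regions above each bar. The ESC share of members grows with signal to 75% in the highest quartile, and the day-8 share to 41.7%, both below those of RING1B-overlapping regions in each quartile.

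The genes of the members were seldom those of the classical Polycomb targets. The gene lists and families were chosen with results of these data known and carry no test. Genes of Hox clusters had 4 H3K27me3 regions and no member, and homeobox and other developmental regulator genes had 167 regions, of which 14 (8.38%) were members, against 29.1% over all regions. In WT the strongest of the 14 were at Meis3 (91.2 in CaPS and 88.3 in WT), a homeobox partner of Hox proteins, and at Gfi1b (48.9 in CaPS and 53.8 in WT), a repressor of blood lineages. Olfactory, vomeronasal and taste receptor genes stood at the other end, with 21 members among 25 regions (84.0%), led by Olfr95 (75.2 in CaPS and 80.2 in WT). Members were 13 of 24 regions at keratin and keratin-associated genes (54.2%), such as Krtap5-4 (136 in CaPS and 97.8 in WT at the stronger of its 2), and 11 of 22 at genes named for CD antigens of blood cells (50.0%), such as Cd72 (59.9 in CaPS and 72.0 in WT). Zinc finger genes named Zfp had 20 members among 49 regions (40.8%), and gene models named Rik or Gm had 152 among 332 (45.8%).

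Among the pathway lists, 24 of 28 neural progenitor genes had an H3K27me3 region, and 1 of them had a member. That was Olig1, a transcription factor gene of oligodendrocyte precursors, whose member was centred at -6982 bases from the TSS, with 22.5 in CaPS and 5.21 in WT. Mesoderm genes with a member were Kdr, a receptor of endothelial precursors, and Tbx5, a heart and limb transcription factor, 2 of 18 with a region. All 24 neural and all 18 mesoderm genes also had a region that overlapped RING1B. So did 24 of the 25 Wnt genes and 7 of the 10 germ cell genes below. The members at Olig1, Kdr and Tbx5 lay 4768, 5094 and 2417 bases from a RING1B interval. None of 10 endoderm and 9 trophoblast genes with a region had a member. Of 25 Wnt ligand and receptor genes with a region, 6 had 7 members, 4 of them higher in CaPS (3 with the sums over all regions set equal), for instance 38.8 in CaPS and 59.3 in WT at the receptor gene Fzd8. The stronger member at Wnt8b had 102 in CaPS and 83.4 in WT, a log2 ratio of 0.29 that becomes -0.039 with equal sums. Of 10 germ cell genes with a region, 4 had 5 members (Mael, Taf7l, Tdrkh and Tex101), 3 of them higher in CaPS. At Taf7l, a testis-enriched TFIID subunit, the signal was 21.8 in CaPS and 6.52 in WT. The WT values at Taf7l and Olig1 lay under 20, where the floor of the table, described below, allows only a higher CaPS value.

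Of 14 imprinted genes with a region, 12 had one that overlapped RING1B and 3 had a member. At Airn, the antisense RNA that silences Igf2r on the paternal chromosome, the member had 45.0 in CaPS and 19.2 in WT, a ratio of 2.34 (1.48 to 3.66), and lay 80 bases from a RING1B interval. The member at Sfmbt2, which encodes an MBT-domain Polycomb protein, had 9.77 in CaPS and 21.8 in WT, a ratio of 0.448 (0.223 to 0.832), and that at H19 had 20.8 in CaPS and 13.7 in WT. The WT values at Airn and H19 and the CaPS value at Sfmbt2 lay under 20. There the floor of the table, described below, allows only a higher value in the other genotype. Among genes of Polycomb subunits, those of the PRC1 components Phc2 (73.6 in CaPS and 60.6 in WT) and Pcgf3 (50.2 in CaPS and 33.6 in WT) had a member. At Phc2 the log2 ratio of 0.28 becomes -0.048 with equal sums. Among 16 pluripotency genes 4 had a region, and all 4 had one that overlapped RING1B. Of these, 1 had a member, the nuclear receptor gene Esrrb (68.4 in CaPS and 74.0 in WT). Of the housekeeping genes 1 had a region, of the CDK inhibitor genes 2 did, and none had a member.

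Because ESC were grown on feeder fibroblasts, markers of both were checked. Of 8 ESC markers, Pou5f1, Nanog, Sox2, Zfp42, Tdgf1 and Dppa5a had no H3K27me3 region. Of 10 fibroblast markers 5 had a region, 2 of them with a member, at the collagen genes Col1a1 (134 in CaPS and 184 in WT) and Col1a2 (87.3 in CaPS and 67.1 in WT). All 6 neural markers had a region and none a member. The part of feeder chromatin in the members was not tested.

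1 member stood apart, and its RING1B values go against the label of a region without RING1B. It is the region at chr7:70315591-70377101 (mm10), intergenic and centred at -8494 bases from the TSS of Gm29683, 61511 bases wide, and peaks inside it are annotated to Nr2f2, a nuclear receptor gene of mesoderm and nervous system, in other tables. H3K27me3 was 2925 in CaPS and 1952 in WT, a ratio of 1.498 (1.43 to 1.57), and it held 4.70% of the summed signal of members in CaPS and 3.73% in WT. The RING1B time course, whose table has no 10 kb limit, has a peak there at chr7:70323066-70374045, centred at -10703 bases from the TSS, so it falls outside the 10 kb that the ESC RING1B tables cover. RING1B in that peak was 5523 and 5854 in CaPS ESC, against 6668 and 7721 in WT ESC (experiments 3 and 5). Those values are high in all 4 libraries. ESC H3K27me3 ChIP-seq there gave 1364 and 1919 in CaPS, against 1190 and 2388 in WT (experiments 1 and 5). Without the region the widest member is 15742 bases, the summed ratio of CaPS to WT is 1.18 instead of 1.19, and the median log2 ratio is 0.29 either way.

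At the other members that a time course peak overlapped, RING1B in ESC was not nil. Members without such a peak have no RING1B value here. The time course held 170 peaks over 165 members (11.5%), against 3137 RING1B-overlapping regions (89.8%) that such a peak overlapped, and 123 of the 170 touched no ESC RING1B interval. In those 123, the median ESC RING1B density was 11.8 and 12.4 tags per 10 M per kb in CaPS, against 10.2 and 11.02 in WT (experiments 3 and 5). In the 47 that also touched an ESC RING1B interval beside the member it was 16.8 and 18.4 in CaPS, against 14.0 and 17.3 in WT. Over all 15091 time course peaks it was 13.9 and 15.9 in CaPS, against 10.8 and 14.7 in WT. In the 6204 time course peaks that touched an ESC interval it was 20.9 and 24.8 in CaPS, against 19.1 and 24.4 in WT. Only 5 of the 123 reached that median in both WT libraries, at Gm29683, Prr36, P2ry6, Cfap97 and Arhgap31, and 4 of the 5 had their centre over 10 kb from a TSS. These ESC libraries are among those behind the rule, so their values are a description.

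In the H3K27me3 CUT&RUN libraries, members were mostly somewhat higher in CaPS, as were the other regions. The median log2 ratio of CaPS to WT was 0.29 (interquartile range -0.041 to 0.59), against 0.23 over RING1B-overlapping regions. The signal was higher in CaPS in 1030 members (71.9%) and in 73.3% of RING1B-overlapping regions, and the summed signal was 1.19 times that of WT, against 1.26 times. With 1 library of each genotype there is no replicate check and no test. Each ratio has an exact 95% interval from its tags, which covers counting error only, and it lay wholly above 1 in 349 members (24.4%) and wholly below 1 in 82 (5.73%), against 39.3% and 5.67% of RING1B-overlapping regions. More than 2-fold higher in CaPS were 110 members (7.68%, against 4.47% of all regions), and more than 2-fold lower were 24 (1.68%, against 0.995% of all regions).

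Most members past 2-fold had 1 library under a floor that the table has for the higher one. Every region has at least 20.19 tags per 10 M in at least 1 of the libraries, so a member with less than 20 in CaPS or in WT had to be higher in the other genotype. This holds given the low value, and the floor alone sets neither that value nor the size of the ratio. In CaPS 109 members were under 20, among them 20 of the 24, and in WT 357 were under 20, among them 101 of the 110. Among the 966 members with at least 20 in both libraries the median log2 ratio was 0.20, against 0.22 in such RING1B-overlapping regions. Of these members 9 were more than 2-fold higher in CaPS (background 1.63% of such regions) and 4 more than 2-fold lower (background 0.212%). The WT signal of all members had a median of 27.1 and an upper quartile of 40.4, so a 2-fold drop takes most of them under 20 in CaPS. The filter thus removes members past 2-fold by construction, and what the floor adds to the counts was not tested. Setting the sum over all regions equal in both libraries shifts each log2 ratio by -0.33, which brings the members' median to -0.035 and that of RING1B-overlapping regions to -0.10, with 51 members more than 2-fold higher and 72 lower in CaPS. The direction of the median in members therefore follows the scaling.

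**Figure D4:**
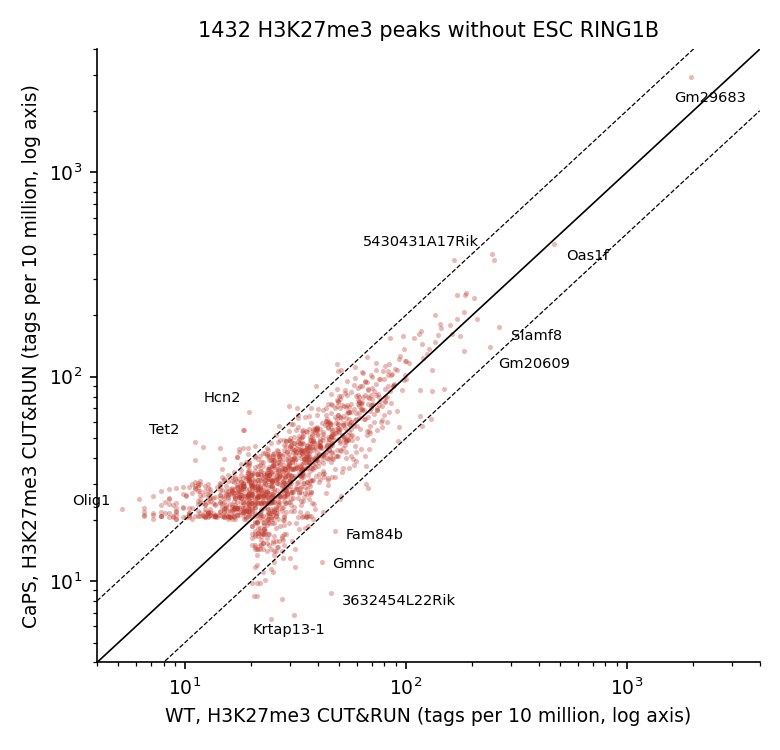
H3K27me3 CUT&RUN signal of each of the 1432 members in CaPS (y axis) against WT (x axis), in tags per 10 M on log axes, with a solid line of equal signal and dashed lines of 2-fold difference. Points crowd the low corner, 1030 of 1432 lie above the solid line, and the floor of 20.19 tags per 10 M leaves the lowest corner empty.

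Next to the Gm29683 region, the strongest members by WT signal were mostly about as high in both genotypes or differed by less than 2-fold. At Oas1f, of the antiviral oligoadenylate synthetase family, the member at chr5:120831049-120846127 was 15079 bases wide with 448 in CaPS and 469 in WT, a ratio of 0.956 (0.860 to 1.06). At Slamf8 the member at chr1:172579907-172594240 had 174 in CaPS and 263 in WT, a ratio of 0.662 (0.566 to 0.776). The interval includes 1 at Oas1f and lies below 1 at Slamf8. At Gprin1, a gene of neurite outgrowth, the member at chr13:54733571-54749312 had 371 in CaPS and 250 in WT, a ratio of 1.48 (1.30 to 1.69). The gene model Gm20609 had 140 in CaPS and 240 in WT, a ratio of 0.582 (0.489 to 0.690), while 5430431A17Rik had 398 in CaPS and 246 in WT, a ratio of 1.62 (1.42 to 1.85). The others of the 10 strongest were the first member of 3632454L22Rik, with 192 in CaPS and 210 in WT, Ttc6, with 242 in CaPS and 203 in WT, and Tnfaip8l1, with 255 in CaPS and 186 in WT. The insulin gene Ins2 had 251 in CaPS and 185 in WT, a ratio of 1.35 (1.16 to 1.59).

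The highest ratios belonged to members with little signal in WT. All of the 8 highest were under 20 in WT, so by the floor of the table CaPS had to be the higher. At the promoter of Tet2, which encodes a dioxygenase that oxidises 5-methylcytosine, the member at chr3:133543122-133547065 had 47.9 in CaPS and 11.1 in WT, a ratio of 4.32 (2.54 to 7.86). It lay 591733 bases from the nearest ESC RING1B interval, but a time course and a day-8 RING1B peak overlapped it. The day-8 peak was weak, with 8.93 and 8.49 in CaPS, against 7.65 and 4.35 in WT (experiments 4 and 3). The pacemaker channel gene Hcn2 had 67.1 in CaPS and 19.6 in WT, a ratio of 3.43 (2.27 to 5.34), at 803 bases from RING1B. Olig1 had a ratio of 4.31 with a wide interval (1.93 to 10.6), and Mad2l2, a gene of the DNA damage response, had 45.3 in CaPS and 12.1 in WT. The others of the 8 highest were at Gm14496, the mucin gene Muc5b, Eva1a and the kinase gene Rps6ka3, with ratios from 3.53 to 4.05 and 6.19 to 11.1 tags per 10 M in WT. The lowest ratios came with similarly few tags. All of the 8 lowest were under 20 in CaPS, so by the floor WT had to be the higher. The floor alone does not set how low the CaPS value was. A second member of 3632454L22Rik had 8.79 in CaPS and 45.9 in WT, a ratio of 0.191 (0.104 to 0.358). At Krtap13-1, a hair keratin-associated gene, the signal was 6.84 in CaPS and 31.3 in WT, and at Gmnc, a gene of multiciliated cells, it was 12.4 in CaPS and 41.7 in WT. The others of the 8 lowest were at Cdkn2aip, the ciliary gene Ttc8, Fam84b, Gm29805 and the neutrophil antigen gene Cd177, with ratios from 0.266 to 0.400. All these are pairs of single libraries.

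In ESC H3K27me3 ChIP-seq, with 2 libraries of each genotype, no ChIP-seq peak over a member passed the test. The 274 peaks over 264 members had median signals of 11.8 and 10.2 in CaPS, against 9.60 and 13.4 in WT (experiments 1 and 5). CaPS was the higher in experiment 1 and WT in experiment 5, with median log2 differences of 0.30 and -0.32, the same as the 0.30 and -0.32 over all peaks. Together the median was -0.01 over members and -0.03 over all. limma with the experiment as a block and Benjamini-Hochberg adjustment over all 9195 peaks called 0 peaks over members, with 3 at an unadjusted p under 0.05, and 0% of all peaks. edgeR and DESeq2 on recovered read counts also called 0 over members, and limma called 2 without both the block and the WT library of experiment 1. The smallest unadjusted p was at Heatr1, a ribosome biogenesis gene, with 3.18 and 8.26 in CaPS, against 11.5 and 15.0 in WT, a log2 difference of -1.19 (SE 0.57, adjusted p 1.00 by limma). Next were Gm9047 (5.00 and 7.89 in CaPS, 13.4 and 16.4 in WT), Mdh1b (0 and 4.88 in CaPS, 9.99 and 7.52 in WT) and Larp1b (17.7 and 18.97 in CaPS, 4.99 and 15.0 in WT).

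RING1B in day-6 NPC was called higher in CaPS than in WT at 11 of the 170 time course peaks over members and lower at none. The 11 are 6.47% of the 170, against 3.66% of all 15091 peaks called higher and 0.325% called lower in CaPS (limma, experiment as a block, adjusted p under 0.05 over all peaks). Of the 170 peaks, 47 also touched an ESC RING1B interval beside the member. Over members with no ESC RING1B within 1 kb, 6 of 111 peaks were called, all higher in CaPS. The median log2 difference was 0.62 over the members' peaks and 0.41 over all, and by experiment 0.28 and 0.90, against 0.14 and 0.63 over all (experiments 3 and 5). Both the members and the whole table were thus higher in CaPS, in both experiments. Setting the sums over all peaks equal left a median of 0.36 over members and 0.09 over all, with 4 peaks called higher and 1 lower. edgeR on the recovered read ends gave a median of 0.23 over members and 0.054 over all, with 2 calls, both higher, at Rb1 and LOC106557447. Without the block limma called 3. The experiment 5 libraries are shallow, with 2.42 M tags in CaPS and 2.01 M in WT at day 6. Leaving out the CaPS one left 1 call, and leaving out the WT one left 0. Without a day-6 library of experiment 3 there were 28 (CaPS) or 30 (WT) calls, and without a day-8 library 5 to 7.

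The clearest of these was LOC106557447, an uncharacterised non-coding gene on chromosome 4. Its peak at chr4:88932396-88941286 had 326 and 719 in CaPS day-6 NPC, against 130 and 97.2 in WT, with no overlap between genotypes (log2 difference 2.10, SE 0.36, adjusted p 3.79e-06 by limma). At day 8 it had 683 and 1317 in CaPS, against 262 and 313 in WT (log2 difference 1.72, adjusted p 0.000421 by limma). In ESC it had 89.8 and 128 in CaPS, against 71.2 and 114 in WT, so the genotypes overlapped there. The member itself, at chr4:88934824-88937529, lay 27 bases from an ESC RING1B interval and had 49.2 in CaPS and 27.1 in WT in ESC H3K27me3 CUT&RUN.

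At Rb1, the retinoblastoma tumour suppressor gene, the intronic peak at chr14:73323964-73325272 had 27.9 and 88.8 in CaPS day-6 NPC, against 8.98 and 9.96 in WT (log2 difference 2.28, SE 0.49, adjusted p 0.000599 by limma). The WT value of experiment 5 lies under 14.9 tags per 10 M, which is 3 tags at that library's depth, so the difference rests on few tags. Eml5, of the EMAP family of microtubule proteins, had 69.0 and 136 in CaPS, against 27.2 and 49.8 in WT (log2 difference 1.37, adjusted p 0.0207 by limma). At day 8 Eml5 had 108.1 and 198.7 in CaPS, against 46.1 and 38.7 in WT (log2 difference 1.77, SE 0.39, adjusted p 0.00135 by limma). In ESC the genotypes overlapped at Eml5, with 32.8 and 20.7 in CaPS, against 34.1 and 25.7 in WT, and its member lay 320766 bases from the nearest ESC RING1B interval. Other calls at day 6 were at D230030E09Rik (54.4 and 161 in CaPS, 26.4 and 39.9 in WT), the phosphatase gene Ppm1e (113 and 339 in CaPS, 93.4 and 72.2 in WT) and Ugt8a, a gene of myelin lipid synthesis (122 and 330 in CaPS, 62.9 and 132 in WT). At Ugt8a the genotypes overlapped, since the lower CaPS value is under the higher WT value. The cilia and flagella gene Cfap65 had 25.2 and 61.9 in CaPS, against 13.6 and 9.96 in WT, where the experiment 5 value again lies under the level of 3 tags. The remaining calls were at Lsamp, Ankrd29, Ythdc2 and Stau2, where the WT library of experiment 5 had 0 tags, which at its depth allows up to 14.9 tags per 10 M, so no fold is given.

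At day 8, 2 of the 170 peaks, those of LOC106557447 and Eml5, were called higher in CaPS than in WT and none lower. The 2 are 1.18%, against 0.769% of all peaks called higher and 0.245% called lower. The median log2 difference was 0.34 over members and 0.26 over all. With equal sums over all peaks it was 0.037 over members and -0.018 over all, with 2 calls higher and 1 lower. Leaving out either experiment 5 day-8 library left 0 calls, and leaving out either CaPS day-6 library left 4. The change of the genotype difference between day 6 and day 8 passed the test at 0 of the 170 (limma, 3 of all peaks). The largest peak after that of Gm29683 was at Rnf220, a ubiquitin ligase gene, with 821 and 2125 in CaPS day-6 NPC, against 572 and 620 in WT, which did not pass the test (adjusted p 0.0828 by limma). In the Gm29683 peak RING1B was 1465 and 3029 in CaPS, against 2535 and 2621 in WT at day 6, and 947 and 1733 in CaPS, against 1042 and 2839 in WT at day 8, below its ESC values in every library of the same genotype and experiment.

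**Figure D5:**
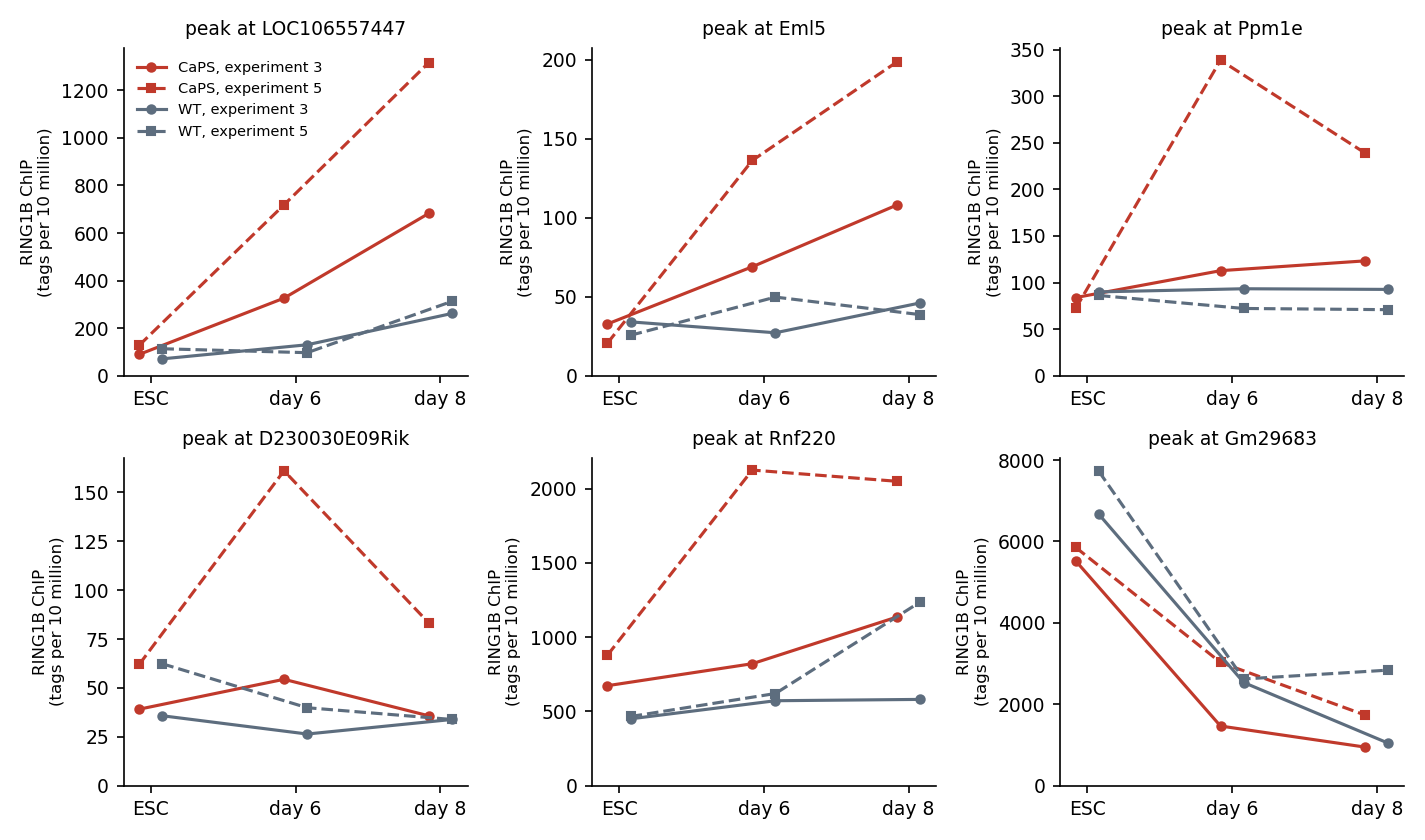
RING1B ChIP-seq signal in tags per 10 M (y axis, linear) in ESC, day-6 and day-8 NPC (x axis) for 6 time course peaks over members, with 1 point per library, CaPS in red left of WT in grey, and solid and dashed lines joining libraries of experiments 3 and 5. At LOC106557447 and Eml5 both CaPS points lie above both WT points at day 6 and day 8, while the Gm29683 peak is highest in ESC in both genotypes.

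The separate day-8 RING1B table, which covers experiments 4 and 3, had 65 peaks over 54 members (3.77%), against 2175 RING1B-overlapping regions (62.2%) with a peak. Its experiment 3 libraries are the same ones as in the time course. There 49 of the 65 peaks (75.4%) were lower in CaPS, against 67.5% of all, with a median log2 difference of -0.79, against -0.37 over all. By experiment the median was -1.56 and -0.30, against -0.88 and 0.15 over all (experiments 4 and 3). limma with the block called 0 of the 65 and 0% of all 5393 peaks, with 15 of the 65 at an unadjusted p under 0.05, whereas edgeR called 8 (5 lower and 3 higher) and DESeq2 called 2, both higher. Dropping the block alone gave 1 call (lower), and an equal sum over peaks gave 12 (9 lower and 3 higher). With 3 libraries the block could not be kept, and without both the block and the experiment 3 library of CaPS or of WT limma called 2 or 32. The smallest p belonged to peaks at Urad (0 and 1.18 in CaPS, 15.3 and 5.80 in WT), Api5, an apoptosis inhibitor gene (2.63 and 1.97 in CaPS, 24.9 and 7.26 in WT), Lyg2, a lysozyme-like gene (1.05 and 1.18 in CaPS, 10.52 and 9.67 in WT), and a small peak inside the Gm29683 region (15.2 and 21.1 in CaPS, 0 and 10.2 in WT), each with an adjusted p of 0.459 by limma. LOC106557447 had the highest WT signal after the Gm29683 region, with 275 and 651 in CaPS, against 204 and 244 in WT. At Fosb, an immediate early gene, the values were 19.4 and 12.6 in CaPS, against 77.4 and 16.9 in WT. The time course and this table thus differ in direction for the median of members. They share the experiment 3 libraries, counted in different peaks, and differ in the other experiment, which is 5 in the time course and 4 here.

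H3K27me3 in day-8 NPC was lower in CaPS than in WT per 10 M tags, in the median over members as over the table, and this direction in members follows the scaling. The 237 peaks over members had a median of 27.98 in CaPS and 36.9 in WT in the authors' values, with a median log2 ratio of -0.86, against -1.11 over all. More than 2-fold lower in CaPS were 98 (41.4%, against 55.6% of all peaks), and more than 2-fold higher were 8 (3.38%, against 2.66%). At Crygs, a lens crystallin gene, the value was 52.0 in CaPS and 422 in WT. The share of tags in the table's peaks was 8.20% in CaPS and 16.4% in WT. Setting the sums over all peaks equal shifts each log2 ratio by 1.00, which brings the members' median to 0.14 and that of all peaks to -0.11. Then 22 members' peaks (9.28%, against 24.5% of all) were more than 2-fold lower and 26 (10.97%, against 9.03% of all) more than 2-fold higher. Per 10 M tags, LOC106557447 had 235 in CaPS and 211 in WT, and Eml5 had 64.3 in CaPS and 29.1 in WT. The libraries hold 32.88 M tags in CaPS and 4.47 M in WT, and no spread is given with them, so there is no test.

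In day-10 EB, RING1B CUT&RUN peaks overlapped 33 members (2.304%), against 2286 RING1B-overlapping regions (65.4%). The 35 peaks there were weak, with a median of 9.35 in CaPS and 8.54 in WT. More than 2-fold higher in CaPS were 10 (28.6%, against 15.0% of all peaks) and more than 2-fold lower 4 (11.4%, against 8.10%), in 1 library of each genotype and without a test. The 10 had 1.22 to 4.88 in WT and the 4 had 2.85 to 4.88 in CaPS, at a depth where 3 tags are 2.44 per 10 M. The Gm29683 region had the strongest of these peaks, at 658 in CaPS and 674 in WT. At Mak, a kinase gene of male germ cells and photoreceptors, the value was 37.4 in CaPS and 31.7 in WT. A RING1B peak of the time course, the day-8 table or the day-10 table overlapped 202 members (14.1%), against 3274 RING1B-overlapping regions (93.7%).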

How the data were processed

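The measured values are signal in tags per 10 M, which the authors deposited in peak tables annotated with HOMER on mm10. ChIP-seq peaks were called over input and CUT&RUN peaks over IgG, per the labels. Tools credited to the submitters' processing notes are HOMER 4.10.4, SAMtools 1.9, cutadapt 1.14 and Bowtie2 2.3.4.3. Drosophila chromatin was spiked into the ChIP samples, per the labels' protocols, and the sources used here do not say whether the totals carry a correction for it. Library totals are in the file headers, and run from 2.01 to 32.88 M tags. Every value gave whole read ends when multiplied by its total, but the total of the experiment 3 WT library of day 8 is 11.81 M where the time course counts it and 10.34 M in the separate day-8 file, so totals are those of the tag sets the authors used for each table. 2 columns that matched no sample were not used, and knockout libraries were not analysed here. In the time course, the ESC libraries and those of both NPC days were in 1 table, normalized together, and experiment 3 day-8 libraries recur in the day-8 table, so tables were tested separately.

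Here regions were joined by position with at least 1 shared base. limma 3.58.1 (R 4.3.3) was run on log2(value + 1), so folds of low values are understated, with a trend, the experiment as a block and Benjamini-Hochberg adjustment over all peaks of a table, at 0.05. The block follows the series text, which says that comparisons were made within experiments done at the same time. Deviations of libraries of the same experiment correlated at 0.0939 (ESC H3K27me3), 0.253 (day-8 RING1B) and 0.0645 to 0.215 (time course). limma's spread was shared across peaks by signal, so a peak's p reflects the spread of peaks of like signal. edgeR 4.0.16 and DESeq2 1.42.0 on the recovered read ends, other pseudocounts, filters, scalings and left-out libraries were alternatives. With 2 libraries a genotype, a fit without 1 of them could not keep the block. Where a genotype has 1 library, ratios have exact conditional 95% intervals on tags, and these and the limit of 3 tags for a value of 0 cover counting error only. The scripts used Python 3.11.15, pandas 2.3.3, numpy 2.4.6, scipy 1.17.1 and matplotlib 3.10.9, and the tests were checked on simulated data.

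The members and all gene lists were chosen with earlier results of these data known. Named were the 10 members with the highest WT value, the 5 widest, the 8 lowest and 8 highest ratios with at least 30 tags in both libraries together, members in the gene lists, called peaks or the 4 with the smallest p, and up to 8 with the highest day-8 RING1B. Amigo1, Prex1, Tcerg1l, Rnf220, Crygs, Mak, Prr36, P2ry6, Arhgap31 and the examples of gene families were chosen after their values were seen.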

Additional observations from a re-analysis of the deposited data

How the results depend on the processing

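The main limits are the single CUT&RUN libraries, the floor of the peak table and the shallow experiment 5 libraries. With equal sums over regions the median log2 ratio of H3K27me3 CUT&RUN in members was -0.035, with 72 members more than 2-fold lower and 51 higher in CaPS, and the log2 ratio changed sign at Cfap97 (-0.059) and Ttc6 (-0.073), whose 95% intervals had excluded 1. It also changed sign at Phc2 (-0.048) and the stronger Wnt8b member (-0.039), whose intervals included 1. With at least 20 tags per 10 M in both libraries, an alternative chosen after seeing the data, the values were 0.20, 4 and 9. Among the named CUT&RUN ratios 100 values stayed within the interval of the ratio, 10 left it and the 2 named first changed sign. In day-8 H3K27me3 ChIP-seq, equal sums, chosen after seeing the data, gave 22 members' peaks more than 2-fold lower and 26 higher in CaPS. Leaving out 1 library at a time, which assumes that a lone library varies like those of the other groups, gave 0 to 2 calls over members in ESC H3K27me3 ChIP-seq and 0 to 32 in the day-8 RING1B table, both also with no replicate block. With the block kept it gave 0 to 30 at day 6 and 0 to 4 at day 8 of the time course. Day-8 RING1B calls numbered 12 with equal sums, 1 with no replicate block, 8 by edgeR and 2 by DESeq2. Day-6 calls in the time course numbered 6 with no RING1B within 1 kb, 6 with a filter on the lower quartile, 5 with equal sums, 3 with no replicate block and 2 by edgeR. Day-8 calls in the time course numbered 1 with no RING1B within 1 kb and 0 with no replicate block. For the named time course peaks 135 values held and 86 lost the call. Members overlapping a RING1B peak of the day-8 or time course tables or the EB table numbered 133 with no RING1B within 1 kb and 22 with at least 50% of the member covered. Where a setting only changes the libraries or regions used, that is its construction, and elsewhere the cause was not tested. The day-6 calls under the scaling and block settings included Rb1, Lsamp and LOC106557447.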

Other observations

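Further gene families showed where members were common or rare among the 4926 regions. Members were 17 of 58 regions at cytokine, chemokine and receptor genes (29.3%), close to the 29.1% over all regions, and 16 of these 17 were higher in CaPS, with a median log2 ratio of 0.40, against 9 of 17 with the sums over all regions set equal. Their median WT signal was 19.9, and members under 20 in WT had to be higher in CaPS. The families follow gene symbols, and the 17 include Tnfaip8l1, which is named as a protein induced by tumour necrosis factor and not as a cytokine or receptor. After it, the strongest of them by WT signal was at Il20ra, a cytokine receptor gene, with 67.1 in CaPS and 83.7 in WT, which is the exception in direction. Collagen genes had 8 members among 27 regions (29.6%), potassium channel genes 20 among 77 and microRNA genes 21 among 73 (28.8%). Neurotransmitter receptor genes had 17 among 81, protocadherin and cadherin genes 7 among 43 (16.3%), and ADAM protease genes 3 among 21 (14.3%). By chromosome the share of regions that were members ran from 20.6% on chromosome 12 to 38.6% on chromosome 7. These are counts of regions in 1 pair of libraries and carry no test.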
